A study of Mus musculus with 45 samples.

Results

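LPA (lysophosphatidic acid) is a signalling lipid that cells read through G protein coupled receptors, and 10 genes for the reading and the turnover of LPA were followed through RNAseq of mouse neuroepithelial organoids with and without retinoic acid (RA). They are the receptor genes Lpar1, Lpar2, Lpar3, Lpar4 and Lpar6, the lipid phosphatase genes Plpp1, Plpp2 and Plpp3, the phosphatase relative Plppr1 and the kinase gene Agk. Each was found by its symbol through its Ensembl gene ID, and each matched 1 row, so that 10 of the 54532 genes of the count table are described.

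LPA outside cells is made mainly by the secreted enzyme autotaxin, encoded by Enpp2, from lysophosphatidylcholine. The receptors of Lpar1, Lpar2 and Lpar3 belong to the EDG family and those of Lpar4 and Lpar6 to the P2Y-like family. The phosphatases of the Plpp family sit in membranes and remove the phosphate from LPA, which ends the signal. The protein of Plppr1 resembles them but lacks phosphatase activity, and Agk encodes a mitochondrial kinase that can make LPA inside cells.

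R1 mouse embryonic stem cells, a wild-type line, were grown clonally in Matrigel in N2B27 medium, which favours neural differentiation. Organoids were collected at day 2 and at 7 later times (8 h, 18 h and 30 h past day 2, followed by 42 h, 54 h, 66 h and 78 h) in plain N2B27 (untreated) or in N2B27 with 250 nM all-trans RA added at day 2 (RA-treated). The labelled treatment protocol gives another dose unit and partly other times, and the dose and times of the series design and the sample titles are used here. Each of the 15 conditions has 3 biological replicates, all from the same line, and the 45 libraries hold 17298632 to 39688686 counts. As these are bulk samples, fewer cells of a type and less RNA per cell cannot be told apart.

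Some libraries stand apart. By the library numbers in the sample titles, all libraries of 66 h and 78 h, day 2 replicate 3, untreated replicate 3 of 54 h and RA-treated replicates 2 and 3 of 30 h belong to a later series, and the others to an earlier one. What separates the series is not given in the sources used here. In 6 of them the 4 listed Y-chromosome genes averaged only 1.22 to 3.65 CPM (counts scaled to a common library size), whereas the other 39 had 22.9 to 89.5 CPM. All 3 untreated replicates of 30 h, RA-treated replicates 1 and 3 of 30 h, and RA-treated replicate 3 of 8 h made up these 6. At 30 h, RA replicate 2 was therefore the only library of the higher kind. The 6 neural progenitor markers (Sox1, Sox2, Pax6, Nes, Pax3 and Sox3) summed to 466 to 484 CPM at day 2, 822 to 945 CPM in untreated and 934 to 1049 CPM in RA-treated organoids at 78 h, with Pax3 alone at no more than 3 counts in the day 2 libraries. Sox2 went the other way. By the thresholds given below, it was called lower than at day 2 in RA-treated organoids at 42 h and 54 h. In untreated organoids at 78 h the other 5 were called higher, as 33.1 percent of all genes were called in either direction. Sox2 was lower there and passed the adjusted p alone. Genes for simple epithelium and trophoblast (Krt8, Krt18, Krt19, Cdx2 and Gata3) summed to 33.7 to 35.2 CPM at day 2, 46.8 to 55.7 CPM in untreated and 539 to 562 CPM in RA-treated organoids at 78 h.

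Untreated and RA-treated organoids came to differ in their mix of LPA receptor transcripts. Lpar4 fell with RA and stayed low, Lpar3 rose from a very low level, Lpar1 was higher with RA from 30 h to 66 h, Lpar6 was higher with RA from 18 h to 42 h and lower at 78 h, and Lpar2 rose with time in both arms. A gene was called changed where its adjusted p was under 0.01 and it differed by more than 1 on the log2 scale in either direction, in edgeR's quasi-likelihood test across all genes with Benjamini-Hochberg adjustment, and all adjusted p values in the text come from that test. All log2 fold changes are RA-treated over untreated unless day 2 is named.

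**Figure D1:**
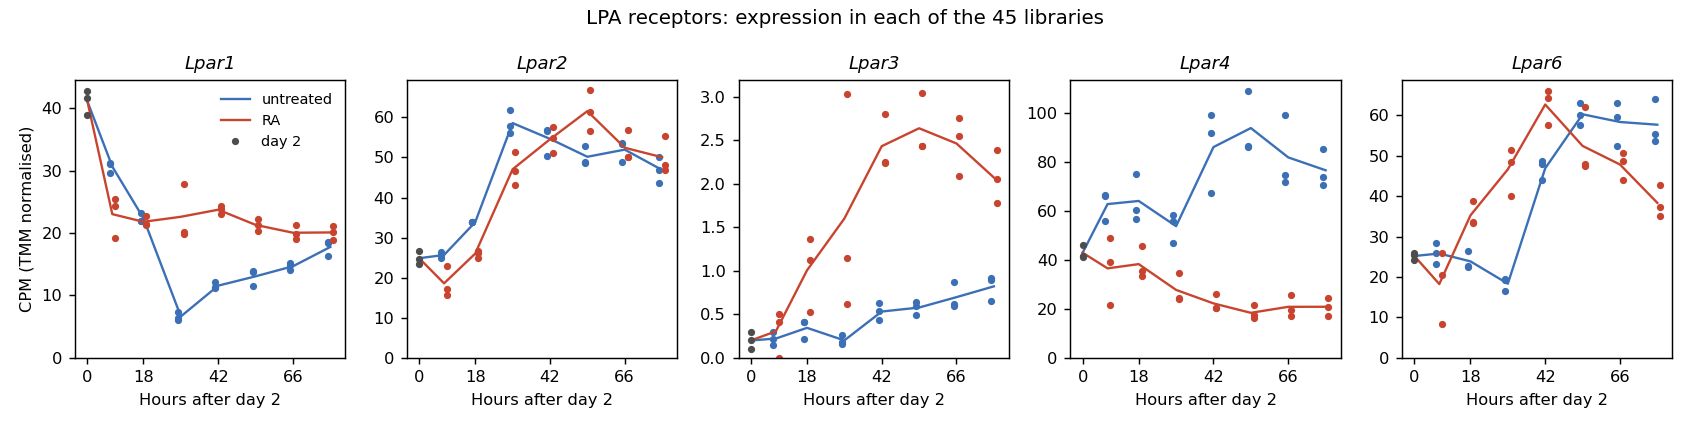
Expression of the 5 LPA receptor genes in CPM (y axis, its range set for each gene) against hours after day 2. Points are libraries, lines join the means of 3; at 42 h and later every RA-treated library lies below every untreated library for Lpar4 and above every untreated library for Lpar3.

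Lpar4 (ENSMUSG00000049929, GRCm38 chrX:106920625-106933900, plus strand, 3 merged exons) showed the largest loss with RA among the members. At day 2 its libraries were at 41.8, 41.1 and 46.1 CPM. At 42 h untreated libraries were at 99.2, 92.0 and 67.5 CPM and the RA-treated libraries at 20.2, 20.4 and 26.2 CPM. At 54 h the values were 109, 86.8 and 86.1 CPM against 21.4, 16.4 and 17.3 CPM. The arms did not overlap at any time after day 2. Every untreated library after day 2 was above the 3 of day 2, and every RA-treated library from 30 h on was below them. The log2 fold change was -0.73 (standard error 0.12, adjusted p = 2.7e-04) at 18 h and -0.96 (standard error 0.17, adjusted p = 0.0054) at 30 h, which passed the adjusted p but not the fold, and then -1.96 (standard error 0.15, adjusted p = 1.8e-06) at 42 h, -2.37 (standard error 0.12, adjusted p = 1.1e-07) at 54 h, -1.97 (standard error 0.16, adjusted p = 5.3e-06) at 66 h and -1.86 (standard error 0.12, adjusted p = 3.0e-07) at 78 h, all 4 called. At 8 h it was -0.78 (standard error 0.26, adjusted p = 0.097), where RA replicate 3 had 21.4 CPM and the other RA libraries 39.2 and 49.1 CPM. At 30 h the adjusted p rose above the threshold when any of 4 libraries was left out, and ranged from 3.2e-06 to 0.029. From day 2 to 78 h, Lpar4 rose in untreated organoids by 0.82 (standard error 0.14, adjusted p = 6.9e-06) on the log2 scale and fell in RA-treated organoids, with -1.10 (standard error 0.23, adjusted p = 2.0e-04).

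Lpar3 (ENSMUSG00000036832, GRCm38 chr3:146220963-146286186, plus strand, 3 merged exons) went the other way, from a level near the limit of detection. At day 2 its libraries were at 0.207, 0.0999 and 0.291 CPM, where 3 counts correspond to 0.0800 to 0.183 CPM depending on the library, and 5 of the 45 libraries held 3 counts or fewer. At 42 h the untreated libraries were at 0.629, 0.532 and 0.433 CPM and the RA-treated libraries at 2.80, 2.25 and 2.24 CPM. At 78 h they were at 0.647, 0.922 and 0.892 CPM and 2.06, 1.77 and 2.38 CPM. Lpar3 thus rose with time in both arms and more with RA, but remained the least expressed of the 5 receptors in every condition. RA over untreated gave a log2 ratio of 1.62 (standard error 0.43, adjusted p = 0.0064) at 18 h, 2.17 (standard error 0.25, adjusted p = 4.8e-05) at 42 h, 2.18 (standard error 0.25, adjusted p = 3.9e-05) at 54 h, 1.82 (standard error 0.23, adjusted p = 1.1e-04) at 66 h and 1.34 (standard error 0.22, adjusted p = 5.5e-04) at 78 h, all called. At 18 h the call was lost when any of 4 libraries was left out (adjusted p from 0.0028 to 0.041). At 8 h Lpar3 did not pass the filter on low counts and was not tested. At 18 h and 30 h it passed that filter only through its RA-treated libraries, with 12 to 33 and 19 to 99 counts. The untreated libraries held 8 to 10 and 3 to 7 counts and lay under the cutoff. Whether Lpar3 was tested at 18 h and 30 h thus depended on the arm where it was high. At 30 h the RA-treated libraries were at 0.620, 3.03 and 1.14 CPM in replicate order, and the difference of 2.95 (standard error 0.71, adjusted p = 0.019) was not called; without RA replicate 2 it was 2.05 (adjusted p = 0.0022).

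The genes for simple epithelium and trophoblast were also higher with RA at most times. At 8 h their sum was lower with RA, at 12.4 to 34.7 CPM against 35.7 to 41.8 CPM. None of them was called there, where 1.80 percent of all genes were. In RA-treated organoids their sum was 52.2 to 54.1 CPM at 18 h, 137 to 158 CPM at 42 h, 256 to 286 CPM at 54 h and 312 to 432 CPM at 66 h, against 29.8 to 58.8 CPM in untreated organoids at these times. At 30 h the RA-treated libraries ran from 33.4 to 158.6 CPM, the lowest of them within the untreated range of 29.8 to 33.7 CPM, and none of these genes was called. At 42 h and 54 h Krt8, Krt18, Krt19 and Gata3 were called higher with RA and Cdx2 lower. All 5 were called higher at 78 h, where 11.7 percent of all genes were called. Endoderm markers (Sox17, Foxa2, Gata4 and Gata6) were also higher, with 3 of 4 called at 78 h and a sum of 20.04 to 21.8 CPM against 2.82 to 3.09 CPM. Their part in the result for Lpar3 was not tested.

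Lpar1 (ENSMUSG00000038668, GRCm38 chr4:58435255-58553898, minus strand, 9 merged exons) was highest before treatment, with 39.0, 41.7 and 42.8 CPM at day 2. It fell in both arms. At 8 h the RA-treated libraries were lower, with 25.5, 24.4 and 19.3 CPM against 29.7, 31.1 and 31.2 CPM, a difference on the log2 scale of -0.41 (standard error 0.11, adjusted p = 0.056) that did not pass, and at 18 h the arms overlapped, with -0.03 (standard error 0.07, adjusted p = 0.77). From 30 h on the untreated libraries were the lower ones. At 30 h the untreated libraries were at 6.13, 7.38 and 6.38 CPM and the RA-treated libraries at 20.2, 27.9 and 19.8 CPM. At 42 h they were at 12.1, 11.2 and 11.4 CPM and 24.4, 23.8 and 23.0 CPM. The RA-treated libraries stayed between 18.9 and 27.9 CPM from 18 h to 78 h, whereas the untreated libraries dropped to 6.13 CPM and then climbed to 18.4, 16.3 and 18.6 CPM at 78 h. The log2 fold change was 1.78 (standard error 0.19, adjusted p = 6.8e-04) at 30 h and 1.03 (standard error 0.08, adjusted p = 1.6e-06) at 42 h, both called, then 0.69 (standard error 0.09, adjusted p = 1.0e-04) at 54 h and 0.46 (standard error 0.07, adjusted p = 4.3e-04) at 66 h, under the fold threshold, and 0.19 (standard error 0.08, adjusted p = 0.076) at 78 h, which did not pass. Low Y-chromosome genes marked each untreated replicate of 30 h. Against the RA-treated libraries of the same kind alone, without RA replicate 2, the value at 30 h was 1.58 (adjusted p = 1.7e-09). At 42 h the log2 fold change lies close to the threshold of 1 and came to 0.99 (adjusted p = 2.0e-05) without untreated replicate 2, which ended the call on the fold alone.

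Lpar6 (ENSMUSG00000033446, GRCm38 chr14:73237895-73243294, plus strand, 1 merged exon) was higher with RA at 18 h to 42 h and lower at 78 h. At 8 h the arms overlapped, with 20.5, 25.8 and 8.45 CPM in RA-treated and 28.3, 23.3 and 25.9 CPM in untreated organoids and -0.49 (standard error 0.34, adjusted p = 0.38). At 18 h the RA-treated libraries were at 38.9, 33.4 and 33.5 CPM and the untreated ones at 22.4, 26.4 and 22.7 CPM. At 30 h the values were 39.97, 51.5 and 48.4 CPM against 19.4, 16.5 and 19.1 CPM. Untreated organoids had come up by 42 h, with 48.7, 48.0 and 44.0 CPM, and at 78 h they were above the RA-treated ones, with 64.0, 55.3 and 53.8 CPM against 42.7, 37.3 and 35.0 CPM. On the log2 scale the arms differed by 0.57 (standard error 0.09, adjusted p = 1.2e-04) at 18 h, 1.35 (standard error 0.14, adjusted p = 6.0e-04) at 30 h, which was called, 0.41 (standard error 0.07, adjusted p = 6.6e-04) at 42 h and, with the sign turned, -0.57 (standard error 0.09, adjusted p = 3.8e-04) at 78 h. Without RA replicate 2 it was 1.24 (adjusted p = 2.7e-09) at 30 h. In the fit of all 45 libraries together, the value at 42 h was 0.42 (adjusted p = 0.045) and no longer passed. Lpar6 lies wholly within the span of Rb1, on the opposite strand, and shares 408 exon bases with it. The setting for strand in the counting is not given in the sources used here, so reads on those bases cannot be assigned with certainty.

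Lpar2 (ENSMUSG00000031861, GRCm38 chr8:69822429-69831102, plus strand, 3 merged exons) rose with time in both arms and was called at none of the 7 time points. From 23.3, 24.5 and 26.7 CPM at day 2 it reached 50.4, 56.9 and 56.6 CPM in untreated and 57.6, 54.9 and 51.2 CPM in RA-treated organoids at 42 h, and the arms overlapped there. It was lower with RA at 18 h, with -0.37 (standard error 0.06, adjusted p = 1.8e-04), and higher at 54 h, with 0.28 (standard error 0.07, adjusted p = 0.006). The latter lost the threshold when any of 5 libraries was left out (adjusted p from 0.0016 to 0.045). From day 2 to 54 h the change was 1.03 (standard error 0.07, adjusted p = 1.5e-13) in untreated and 1.28 (standard error 0.11, adjusted p = 2.7e-09) in RA-treated organoids.

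Of the 10 members, 9 passed the filter on low counts at 8 h and all 10 at the later times. The number called was 0 at 8 h, 2 at 18 h, 3 at 30 h, 4 at 42 h and 2 each at 54, 66 and 78 h. Of all genes tested at these times, 1.80, 10.9, 8.45, 12.5, 13.2, 11.5 and 11.7 percent were called. At an adjusted p under 0.01 at any fold change, 0, 7, 4, 5, 6, 4 and 6 members passed, against 3.14, 42.6, 14.1, 37.5, 38.7, 33.3 and 33.4 percent of all genes. At 8 h no member was called by DESeq2 either. With 9 or 10 genes these counts only describe the members. The effect of RA differed between the 7 time points for 8 of the 10 members, in an F test of the 6 interaction terms over the 42 libraries after day 2, which 33.2 percent of all genes passed. Agk and Lpar3 did not pass it.

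**Figure D2:**
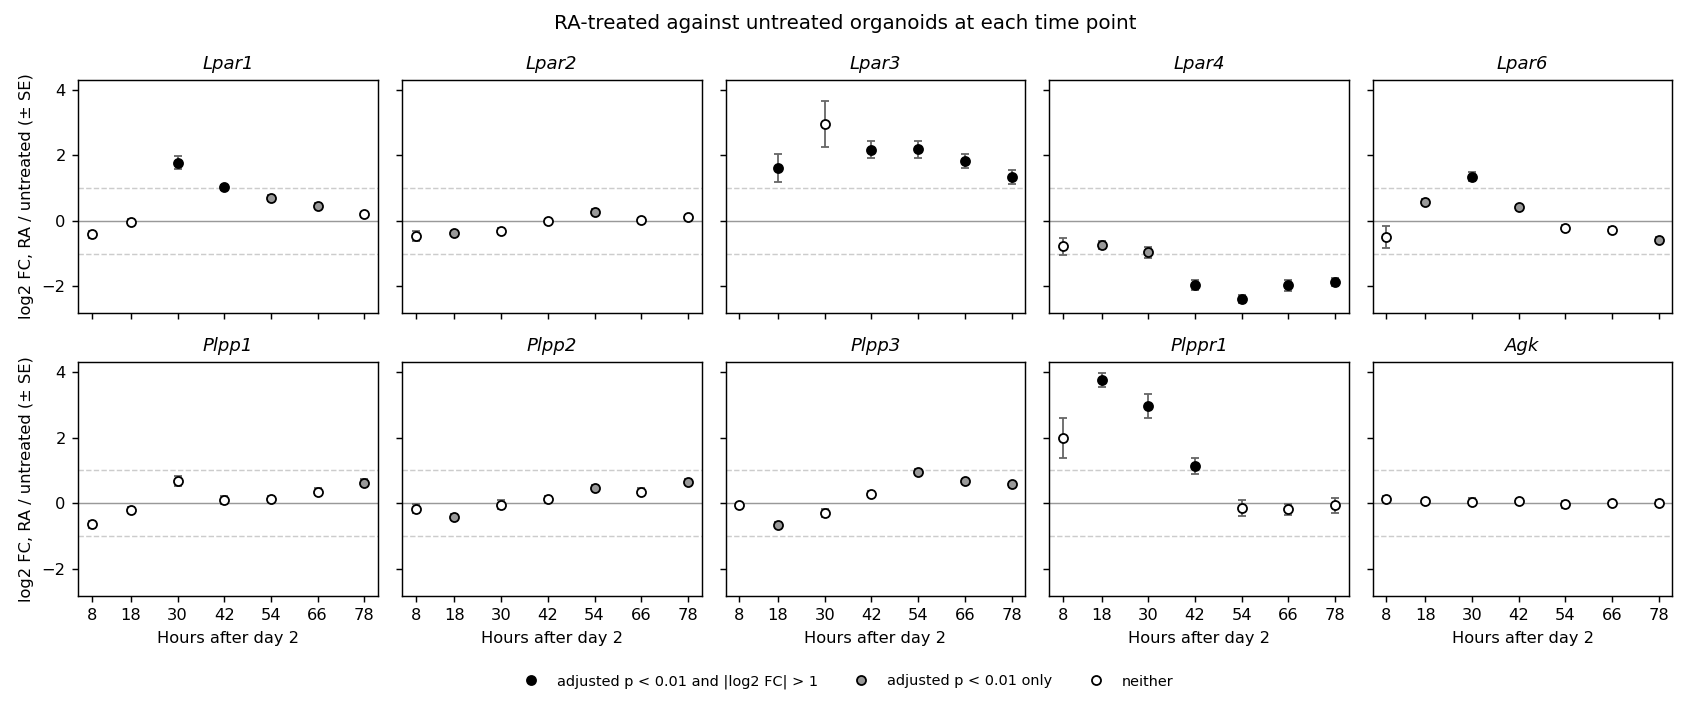
Log2 fold change (FC) of RA-treated over untreated organoids (y axis) at each time after day 2 (x axis) for the 10 members, with the standard error (SE); black points were called, grey points passed the adjusted p of 0.01 alone and white points passed neither. Lpar4 lies below -1 from 42 h on, Lpar3 above 1 at each of the 6 times tested, and Plppr1 falls from 3.77 at 18 h to about no difference from 54 h on.

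To compare the receptors with each other, CPM was divided by the length of the merged exons of each gene in kb, since longer transcripts give more reads. On this per-length scale Lpar4 led in untreated organoids at all 7 times, with 43.8% ± 1.98 (SD, n = 3) of the sum over the 5 receptors at 78 h and its highest share, 49.1%, at 18 h. In RA-treated organoids Lpar4 led at 8 h and 18 h, Lpar6 at 30 h and 42 h and Lpar2 from 54 h on. At 78 h the RA-treated shares were 32.9% ± 4.08 for Lpar2, 27.1% ± 1.61 for Lpar6, 18.8% ± 2.54 for Lpar4, 17.9% ± 0.563 for Lpar1 and 3.22% ± 0.515 for Lpar3 (SD, n = 3 each).

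Not every step in these orders was larger than the spread between libraries. Before treatment Lpar4 and Lpar1 were at 10.1 and 9.59 CPM per kb and their libraries overlapped. With the length of the longest transcript in place of the merged exons, Lpar1 led at day 2 and the share of Lpar4 was 32.9% instead of 35.3%. In untreated organoids at 78 h, Lpar4 with 18.1, Lpar6 with 10.7, Lpar2 with 8.03, Lpar1 with 4.15 and Lpar3 with 0.333 CPM per kb were all separate from their neighbours. In RA-treated organoids Lpar6 and Lpar2 overlapped at 30, 54 and 66 h and were apart at 42 h and 78 h, and Lpar4 and Lpar1 overlapped at each time from 30 h on. At 8 h the RA-treated libraries of neighbouring receptors overlapped throughout, except for Lpar3, which was below the others.

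The sum over the 5 receptors was 28.7 ± 1.41 CPM per kb at day 2. It reached 45.2 ± 3.12 CPM per kb in untreated and 30.6 ± 1.49 CPM per kb in RA-treated organoids at 54 h, and 41.3 ± 2.34 against 26.1 ± 1.18 CPM per kb at 78 h (mean ± SD, n = 3 each). Every untreated library lay above every RA-treated library at 8 h (29.1 to 32.4 against 15.03 to 24.9 CPM per kb), at 18 h (28.6 to 34.0 against 24.2 to 27.8) and at each time from 42 h on. At 30 h the untreated libraries were at 26.5 to 28.5 CPM per kb and the RA-treated ones at 26.9 to 31.0, so that the arms overlapped. These sums were not tested.

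**Figure D3:**
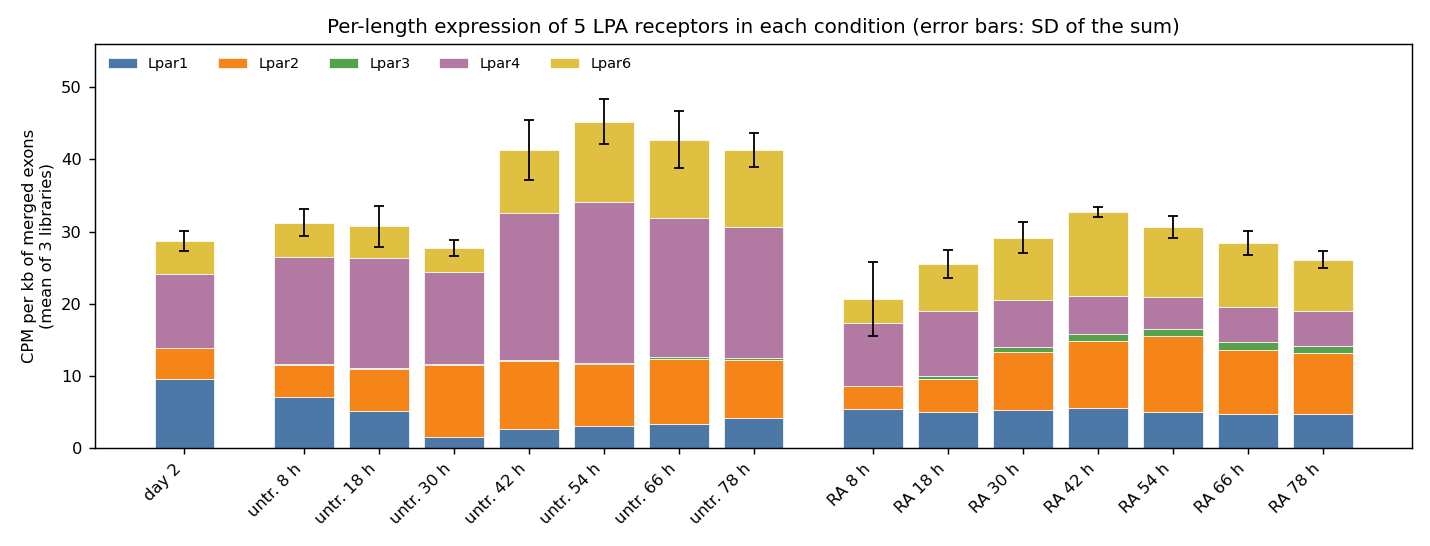
Mean expression per length (CPM per kb of merged exons, y axis) of the 5 LPA receptor genes, stacked for each condition of 3 libraries; bars show the SD of the sum. The sum stands at 41.3 to 45.2 CPM per kb in untreated organoids from 42 h on and at 26.1 to 32.7 in RA-treated ones, and the part of Lpar4 is the one that differs most.

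Sequence upstream of the RefSeq start sites was compared for Lpar3, which rose with RA, and Lpar4, which fell. Each window holds the 250 bases before the start on the transcribed strand of GRCm38.p6, from RefSeq. It lies outside the annotated span of its own gene, and overlap with other genes was not examined. Capitals mark the dinucleotide CG.
Lpar3, chr3:146220711-146220960, plus strand: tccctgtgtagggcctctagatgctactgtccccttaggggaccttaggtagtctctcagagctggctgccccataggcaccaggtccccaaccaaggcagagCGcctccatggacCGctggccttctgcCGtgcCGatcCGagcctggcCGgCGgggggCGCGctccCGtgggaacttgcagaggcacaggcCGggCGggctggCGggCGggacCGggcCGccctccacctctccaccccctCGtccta
Lpar4, chrX:106920375-106920624, plus strand: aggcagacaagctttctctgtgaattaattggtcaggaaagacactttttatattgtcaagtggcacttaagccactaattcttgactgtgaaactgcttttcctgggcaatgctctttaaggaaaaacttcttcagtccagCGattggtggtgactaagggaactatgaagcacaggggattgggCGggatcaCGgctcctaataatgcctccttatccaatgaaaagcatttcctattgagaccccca
The window of Lpar3 holds 17 CG and has a GC content of 69.6%, and that of Lpar4 holds 3 CG with 43.6%. The median over 32851 windows of the same length is 6 CG, and 78.3% of windows hold no more than 17 and 37.8% no more than 3. The window of Lpar6, which was called higher with RA at 30 h, holds 1 CG. A link between CG content and the response to RA was not tested. Windows were also searched on both strands for AGNTCA, a pattern taken here to stand for the core element that RA receptors bind. Other spellings of that element were not searched. AGNTCA is held by 41.3% of the 32851 windows. Pairs of it in direct repeat with spacers of 5, 2 and 1 bases were also searched, and 0.198%, 0.0852% and 0.183% hold them. Neither the window of Lpar3 nor that of Lpar4 holds AGNTCA or a repeat of it. Among the other members with a RefSeq entry, AGNTCA was found at 1 site for Lpar2, 1 site in window 2 of Lpar1 and 2 sites for Agk. No repeat was found in them. The windows of Lpar1 and Agk lie with all 250 bases inside the annotated gene, and that of Lpar2 with 136. The letters in this window say nothing of sites elsewhere.

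Among the lipid phosphatases, Plpp2 and Plpp3 were lower with RA at 18 h and higher at the end, and none of the 3 was called. Plpp3 (ENSMUSG00000028517, GRCm38 chr4:105157347-105232764, plus strand, 6 merged exons), which degrades extracellular LPA and other lipid phosphates in many tissues, was at 30.1, 28.4 and 30.6 CPM at day 2. At 18 h the untreated libraries were at 26.4, 23.8 and 23.98 CPM and the RA-treated ones at 15.9, 17.0 and 13.96 CPM. At 54 h they were at 17.7, 19.1 and 18.8 CPM and 40.04, 35.5 and 34.6 CPM. The arms did not overlap at either time, and their order turned. On the log2 scale Plpp3 differed by -0.65 (standard error 0.08, adjusted p = 2.7e-05) at 18 h, 0.97 (standard error 0.08, adjusted p = 3.9e-06) at 54 h, 0.67 (standard error 0.07, adjusted p = 2.4e-05) at 66 h and 0.57 (standard error 0.08, adjusted p = 2.0e-04) at 78 h. Its interaction of RA with time had an F of 45.4, beside 47.6 for Lpar1, the highest of the members.

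Plpp2 (ENSMUSG00000052151, GRCm38 chr10:79526430-79533796, minus strand, 6 merged exons) followed a like course at a lower level. At 78 h the untreated libraries were at 12.7, 12.8 and 11.9 CPM and the RA-treated ones at 18.7, 19.3 and 20.6 CPM. The log2 fold change was -0.41 (standard error 0.10, adjusted p = 0.0034) at 18 h, 0.47 (standard error 0.08, adjusted p = 6.6e-04) at 54 h and 0.66 (standard error 0.08, adjusted p = 5.8e-05) at 78 h. The value at 18 h lost the threshold in the fit of all 45 libraries, with -0.42 (adjusted p = 0.0105), and when any of 4 libraries was left out. At day 2 replicate 3 had 14.4 CPM against 8.83 and 8.69 CPM in the others. The rise in RA-treated organoids from day 2 to 78 h was 0.82 (standard error 0.15, adjusted p = 4.9e-05), and without that library, the only 1 of day 2 in the later series, it was 1.10 (adjusted p = 1.5e-07), past the fold threshold. Within the later series alone it was 0.39 (adjusted p = 0.097).

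Plpp1 (ENSMUSG00000021759, GRCm38 chr13:112800792-112867894, plus strand, 7 merged exons) fell from 24.6, 25.2 and 24.2 CPM at day 2 in both arms. At 78 h the untreated libraries were at 8.20, 9.16 and 8.23 CPM and the RA-treated ones at 13.3, 14.03 and 11.7 CPM. The change from day 2 to 78 h was -1.55 (standard error 0.09, adjusted p = 1.2e-14) in untreated organoids, which was called, and -0.98 (standard error 0.11, adjusted p = 6.1e-08) in RA-treated ones, just under the fold threshold. Between the arms the log2 fold change was -0.64 (standard error 0.11, adjusted p = 0.014) at 8 h and 0.69 (standard error 0.16, adjusted p = 0.016) at 30 h. It was 0.35 (standard error 0.10, adjusted p = 0.019) at 66 h and 0.63 (standard error 0.10, adjusted p = 4.8e-04) at 78 h. Only the value at 78 h passed the adjusted p of 0.01. Plpp1 shares 452 exon bases with Mtrex on the opposite strand.

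**Figure D4:**
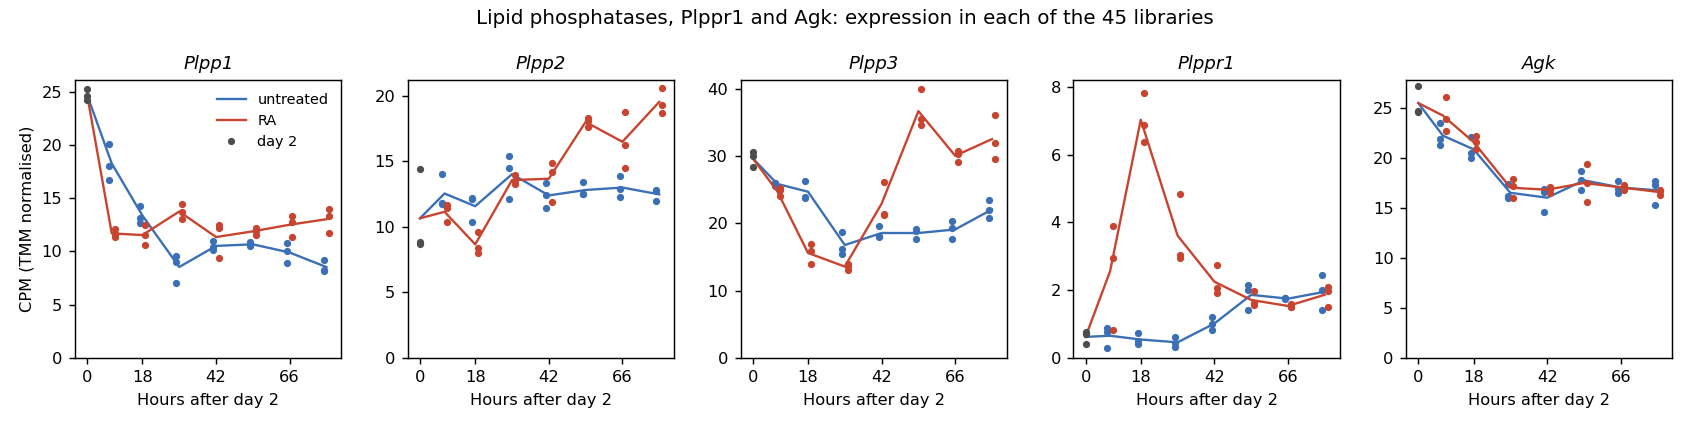
Expression in CPM (y axis, its range set for each gene) of the 3 lipid phosphatase genes, Plppr1 and Agk against hours after day 2. Points are libraries and lines join the means of 3; Plppr1 peaks with RA at 18 h, and Plpp3 with RA is below untreated at 18 h and above it from 42 h on.

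Plppr1 (ENSMUSG00000063446, GRCm38 chr4:49059273-49340259, plus strand, 8 merged exons) is known for its part in neurite growth. It showed the largest fold change of the members, and it did not last. At 18 h the untreated libraries were at 0.722, 0.495 and 0.4001 CPM and the RA-treated ones at 6.38, 7.83 and 6.87 CPM. RA over untreated came to 3.77 (standard error 0.21, adjusted p = 1.5e-08) at 18 h, 2.96 (standard error 0.36, adjusted p = 0.0013) at 30 h and 1.13 (standard error 0.25, adjusted p = 0.0032) at 42 h, all called, and -0.15 (standard error 0.24, adjusted p = 0.62) at 54 h. With a library left out, the adjusted p reached 0.013 at 30 h and 0.016 at 42 h, above the threshold. At 78 h the untreated libraries had come up to 1.40, 1.99 and 2.45 CPM and the RA-treated ones were at 1.51, 1.98 and 2.10 CPM. At 8 h the RA-treated libraries were at 3.90, 2.95 and 0.829 CPM in replicate order, and the difference of 1.99 (standard error 0.61, adjusted p = 0.081) became 2.39 (adjusted p = 3.4e-05) without replicate 3, 1 of the libraries with low Y-chromosome genes. In the fit of all 45 libraries it was 1.99 (adjusted p = 8.2e-05).

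Agk (ENSMUSG00000029916, GRCm38 chr6:40325172-40396762, plus strand, 17 merged exons) varied least of the members as a ratio, with 1.59-fold between its highest and lowest condition means and 14.5 to 27.2 CPM over the 45 libraries. Its log2 fold changes lay between -0.04 and 0.13 with adjusted p values of 0.38 or more. It fell from 24.7, 24.5 and 27.2 CPM at day 2 in both arms, by a log2 fold change of -0.62 (adjusted p = 2.0e-08) in untreated and a log2 fold change of -0.67 (adjusted p = 3.4e-07) in RA-treated organoids at 78 h.

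Against day 2, 5 members were called in untreated organoids at 78 h (Lpar1 and Plpp1 lower, Lpar3, Lpar6 and Plppr1 higher), where 33.1 percent of all genes were called. In RA-treated organoids 4 were called (Lpar1 and Lpar4 lower, Lpar3 and Plppr1 higher), where 34.2 percent were. Both comparisons share the 3 libraries of day 2. All libraries of 78 h but only replicate 3 of day 2 belong to the later of the 2 series of library numbers. Within that series alone, with a lone day 2 library assumed to vary like the others, 4 members were called in untreated organoids (Lpar3 was not, with 1.48 (adjusted p = 0.027)) and 3 in RA-treated ones (Plppr1 was not, with 1.26 (adjusted p = 0.031)), an alternative chosen after seeing the data. In the RA-treated arm, 3 to 6 members were called when a library was left out. The 6 came without day 2 replicate 3 and the 3 without day 2 replicate 2 or RA 78 h replicate 3. The share of all genes called was not taken in these alternative fits.

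The gene of the enzyme that supplies the receptors with LPA was lower with RA at all 7 times, with no overlap between the arms, and was called from 18 h on. Enpp2, which shares 345 exon bases with a long noncoding RNA gene on the opposite strand, was at 16.6 ± 1.20 CPM in untreated and 0.756 ± 0.179 CPM in RA-treated organoids at 42 h and at 11.1 ± 1.99 against 3.25 ± 0.460 CPM at 78 h (mean ± SD, n = 3 each). Its difference on the log2 scale was -4.44 (standard error 0.16, adjusted p = 1.1e-08) at 42 h and -1.76 (standard error 0.16, adjusted p = 4.5e-06) at 78 h. In RA-treated organoids its mean went from 0.453 CPM at 30 h to 3.25 CPM at 78 h. Enpp2 also fell without RA. Against day 2 it was called lower in untreated organoids at each time from 30 h on, and in RA-treated organoids already at 8 h. In untreated organoids Enpp2 and Lpar1 both had their lowest values at 30 h, Enpp2 with 5.26 to 7.50 CPM, in the libraries with low Y-chromosome genes.

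**Figure D5:**
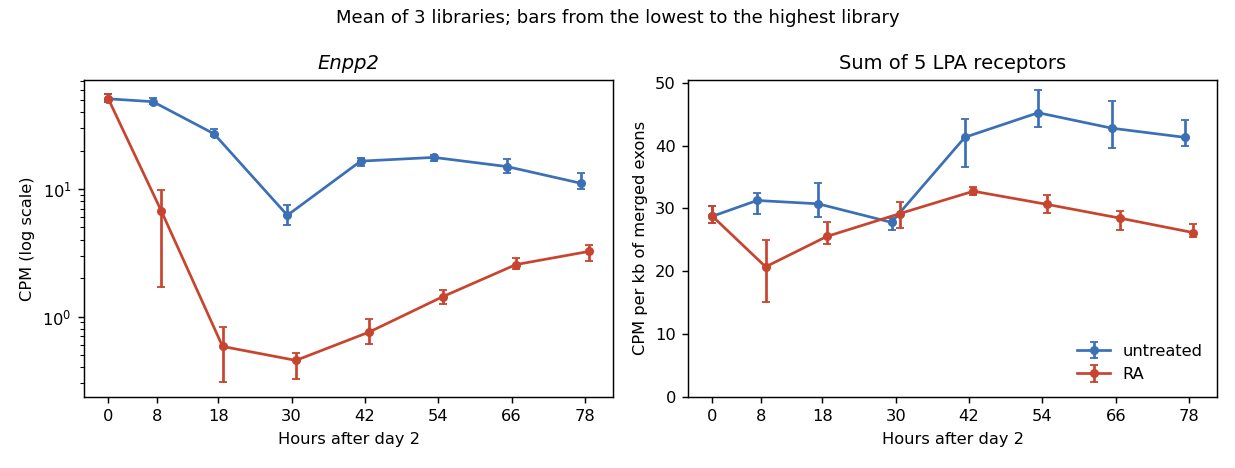
Left, expression of Enpp2 in CPM on a log scale, and right, the sum of 5 LPA receptor genes in CPM per kb, both against hours after day 2; points are means of 3 libraries and bars run from the lowest to the highest library. Enpp2 is lower with RA at every time, and the sum of the receptors is lower with RA at every time but 30 h, where the libraries of the arms overlap.

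Of the 11 genes listed for LPA supply, 9 were tested at each time. At 42 h 4 were called, where 12.5 percent of all genes were. Of these, Enpp2, Pla1a (a phospholipase) and Liph (a lipase that also makes LPA) were lower. Gpat3, an acyltransferase of the endoplasmic reticulum, was higher. At 78 h 2 were called, where 11.7 percent of all genes were, Enpp2 lower and Gpat3 higher, with Gpat3 at 1.88 ± 0.472 CPM in untreated and 10.7 ± 1.41 CPM in RA-treated organoids and a difference of 2.54 (standard error 0.18, adjusted p = 9.1e-07). The median log2 fold change of the list was -0.13 at 42 h and 0.07 at 78 h, beside 0.01 and 0.00 over all genes tested. Supply genes also fell from day 2 without RA. In untreated organoids at 78 h, Enpp2, Pla1a, Liph, Gpat2 and Gpat3 were called lower than at day 2 and Gdpd1 higher. Of all genes, 33.1 percent were called there. Of 9 genes listed for LPA removal by other routes, mainly acyltransferases, 1 was called at 18 h (Agpat3, higher), where 10.9 percent of all genes were. Another 1 was called at 30 h (Acp6, lower), where 8.45 percent were, and none at the other times. At 78 h the median was 0.10, and 3 had an adjusted p under 0.01 (edgeR) at a smaller fold, beside 33.4 percent of all genes.

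Other receptors for lysophospholipids were mostly low. Lpar5, the other P2Y-like LPA receptor gene, had means between 0.460 and 2.85 CPM over the 15 conditions and was called only at 78 h, at 0.460 ± 0.0920 CPM in untreated and 1.45 ± 0.327 CPM in RA-treated organoids and a difference of 1.67 (standard error 0.28, adjusted p = 5.3e-04). Of 8 receptors listed, 4 were tested at 78 h and 1 was called, where 11.7 percent of all genes were called. S1pr2, which reads the related lipid sphingosine 1-phosphate, was the highest of them, at 30.0 ± 1.05 CPM in untreated and 38.4 ± 1.61 CPM in RA-treated organoids, with 0.37 (standard error 0.06, adjusted p = 5.0e-04). Among 8 relatives of the phosphatases, Plppr3, also without phosphatase activity, was called higher with RA from 30 h to 78 h, at 18.0 ± 0.481 CPM in untreated and 40.5 ± 4.02 CPM in RA-treated organoids at 78 h with 1.19 (standard error 0.08, adjusted p = 4.2e-07). It was the only 1 of 6 tested that was called at 78 h, beside 11.7 percent of all genes. The median of the list was -0.05.

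The genes whose course over the 15 conditions was most like that of a member were found by Pearson's r of mean log2(CPM + 1), among genes with a mean of at least 1 CPM. The closest to Lpar3 were Col6a1 (r = 0.991) and Ripply3 (r = 0.988), to Lpar4 Pllp (r = 0.960) and Gmnc (r = 0.959), to Lpar2 Tmbim1 (r = 0.974), to Lpar6 Kcnf1 (r = 0.958), to Lpar1 Pgm2l1 (r = 0.927) and to Plpp3 Cs (r = 0.962). The conditions share their start and their times, and these values are descriptions.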

How the data were processed

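R1 mouse embryonic stem cell organoids were profiled in 45 libraries (poly(A) RNA, 75 base single-end reads). According to the labels and the study's methods, the authors trimmed reads with Trim Galore 0.5.0, screened them with Bowtie2 2.3.4.1, aligned them with STAR to GRCm38 with Ensembl annotation, and counted reads per gene with featureCounts (Subread 1.6.2). The strand setting is not given in the sources used here. The deposited values are raw read counts per gene, and reads that could be split between overlapping genes make those genes' counts uncertain.

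Counts were analysed in R 4.3.3 with edgeR 4.0.16 (TMM scaling, filterByExpr with a minimum count of 10 and a minimum total of 15, glmQLFit and glmQLFTest, Benjamini-Hochberg adjustment). RA-treated and untreated libraries were compared within each time from 6 libraries. Each arm was compared with day 2 in a fit of its 24 libraries, and the interaction of RA and time was tested over 42. The standard error is the log2 fold change divided by the root of the F statistic. CPM used TMM over all 45 libraries, and lengths came from GENCODE on GRCm38. All members are described, together with the genes of lists of LPA enzymes, related receptors and phosphatases, and cell type markers and the genes most like each member. The members and lists were chosen with earlier results of these data known. On simulated counts with 200 genes changed by a log2 of 2, edgeR recovered 100% of them in each kind of comparison. The changed genes were drawn from well-expressed ones, and all genes were given the same dispersion. The simulation therefore says nothing of genes at low counts, such as Lpar3 and Plppr1. Libraries held 17298632 to 39688686 counts, so that 3 counts, the floor of detection, came to 0.0800 to 0.183 CPM. The alternatives were RLE size factors, DESeq2 1.42.0, no filter on low counts, a replicate block, 1 fit of all 45 libraries, an adjusted p under 0.05 at any fold change, the longest transcript as length, and each library left out in turn. The interaction fits with a library left out kept the dispersion trend of the 42. Whether replicate numbers pair RA-treated with untreated libraries was checked through the correlation of their deviations from the group means. At 66 h all 3 pairs were above 0.1 (0.166 to 0.465). Libraries of unlike number were not compared, so these values cannot decide whether the numbers pair the libraries. At the other times at least 1 pair was below 0.1. No 2 replicates were so alike that they looked like 1 library deposited again.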

Additional observations from a re-analysis of the deposited data

Results flagged for a closer look

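The effect of RA differed between the 7 time points for 8 members, in edgeR's quasi-likelihood F test of the 6 interaction terms with Benjamini-Hochberg adjustment over all genes. Lpar1 had the highest F, at 47.6 (adjusted p = 5.2e-13), with the effect largest at 30 h. Plpp3 followed with 45.4 (adjusted p = 9.4e-13), and its effect changed sign between 18 h and 54 h. Plppr1 had an F of 21.6 (adjusted p = 7.9e-09), with its effect at 18 h to 42 h. Plpp1 had 19.7 (adjusted p = 2.3e-08) and Plpp2 15.4 (adjusted p = 3.4e-07), both higher with RA at 78 h. Lpar6 had 14.9 (adjusted p = 4.8e-07), above untreated at 30 h and below at 78 h. Lpar4 had 10.4 (adjusted p = 1.4e-05), lower with RA at every time and by more from 42 h on. Lpar2 had 9.83 (adjusted p = 2.3e-05). The same 8 members passed without the 6 libraries of 30 h, an alternative chosen after seeing the data.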

How the results depend on the processing

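No log2 fold change reversed. Of 32 that passed an adjusted p of 0.01, 7 lost it under at least 1 alternative, 6 of them with a library left out and 2 in the fit of all 45 libraries (Plpp2 at 18 h and Lpar6 at 42 h); the cause was not tested, though a library left out leaves fewer samples. At an adjusted p under 0.05 at any fold change, which is a wider call, 1 member passed at 8 h, 7 at 18 h, 6 at 30 h, 6 at 42 h, 6 at 54 h, 7 at 66 h and 6 at 78 h, beside 11.2, 55, 28.9, 50.8, 51.6, 47 and 47 percent of all genes, and 9 passed against day 2 at 78 h in either arm, beside 74.9 percent in untreated and 68 percent in RA-treated organoids. In the fit of all 45 libraries 1 member, Plppr1, was called at 8 h. With each library left out, 0 to 1 members were called at 8 h (Plppr1 without RA replicate 3), 1 to 2 at 18 h, 2 to 4 at 30 h, 2 to 4 at 42 h, 2 to 2 at 54, 66 and 78 h, 5 to 5 in untreated organoids against day 2 and 3 to 6 in RA-treated ones, and 8 to 8 passed the interaction test. At 18 h the call of Lpar3 was the one lost, and at 42 h those of Lpar1 and Plppr1 were lost without untreated replicate 2, and that of Plppr1 also without untreated replicate 3 or RA replicate 1. At 30 h, Lpar3 was called without RA replicate 2 and Lpar4 without RA replicate 3, and Plppr1 lost its call without untreated replicate 1 or 2. At 30 h, 4 members were called by DESeq2, with no filter and in the fit of all 45 libraries, Lpar3 among them, and 4, with Lpar4 in place of Lpar3, from RA replicate 1 alone against the 3 untreated libraries, where the lone library is assumed to vary like the others. The share of all genes called was not taken in the fits with other settings or libraries, so their counts only describe the members. By the longest transcript the share of Lpar4 at day 2 was 32.9%.

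With the replicate block, 0, 2, 3, 4, 2, 2 and 2 members were called from 8 h to 78 h, 5 and 4 against day 2 in untreated and RA-treated organoids, and 8 passed the interaction test, so that the block changed no call. Correlations of same-numbered libraries were all above 0.1 at 66 h only. At the other times the lowest correlation within a time lay between -0.343 and 0.073. Depth limits Lpar3, Plppr1 and Enpp2, whose lowest libraries held 0 counts (RA 8 h), 5 counts (untreated 30 h) and 7 counts (RA 18 h).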

Other observations

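Enzymes of sphingosine 1-phosphate, a lipid that the Plpp phosphatases also act on, were compared in the same way. Of the 5 listed (Sphk1, Sphk2, Sgpl1, Sgpp1 and Sgpp2), 5 were tested at 18 h, and Sgpp1, Sgpp2 and Sphk1 were called higher, where 10.9 percent of all genes were called, with a median log2 fold change of 1.15 beside 0.02 over all genes tested. At 78 h 4 were tested and Sgpp2, a phosphatase of sphingosine 1-phosphate, was called higher, where 11.7 percent of all genes were called, with a median of 0.39 beside 0.00. Sgpp2 was called higher at each time from 18 h on, in edgeR's quasi-likelihood test.

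Among the receptors of sphingosine 1-phosphate, S1pr3 was called lower at 18, 30 and 42 h and S1pr1 higher at 42 h. Plppr5, another inactive relative of the phosphatases, was called higher at 42 and 54 h, and Plpp4, a phosphatase, lower at 54 and 66 h. Values of the other cell type markers at 78 h follow. The 6 pluripotent cell markers summed to 478 to 578 CPM in untreated and 270 to 513 CPM in RA-treated organoids, the 4 neuron markers to 248 to 264 and 261 to 280 CPM, and the 5 mesoderm markers to 16.9 to 17.3 and 16.0 to 19.5 CPM. The 4 neural crest markers summed to 14.997 to 16.9 and 20.5 to 25.1 CPM, and the 4 endothelium markers to 18.5 to 23.1 and 50.1 to 65.2 CPM. These sums hide opposite changes within lists at 78 h, where 11.7 percent of all genes were called. Called higher with RA were Klf4 (pluripotent cell), Dcx and Tubb3 (neuron), Meox1 (mesoderm), Tfap2a (neural crest), and Cdh5 and Kdr (endothelium). Called lower were Pou5f1 (pluripotent cell), Stmn2 (neuron), T (mesoderm) and Foxd3 (neural crest).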
